A study of Rattus norvegicus with 12 samples.

Results

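Messenger RNA of 10 secreted signalling genes was followed in primary cortical neuroglial cultures of the rat after factors from human glial progenitor cells had been added. The genes are Ccl2, Ccl7, Cxcl1, Cxcl10, Cxcl12, Cx3cl1, Csf1, Lif, Il6 and Il33, which are 10 of the 28111 gene names in the files, each with 1 row per library. They were chosen by function, and also with the difference of Ccl2 and its neighbours between vesicle-treated and untreated cultures in these same libraries already known. That contrast is therefore described for the 10 genes without a test. Results of the other contrasts were known as well when the genes and lists were chosen, so their p-values, those of the pathway lists included, are not independent of the choice. All 4 groups were Wistar cortical cultures at 10 days in vitro, from pups of postnatal day 0 per the labels, and RNA was taken 4 h after the addition. The intact control (IC) received nothing, EV received extracellular vesicles at 10 µg/mL, the third group was given proteins of 3–100 kDa (15 µg/mL) and the fourth the total secretome (45 µg/mL) of the same conditioned medium, with 3 libraries in each group. The preparations came from glial cells differentiated from induced pluripotent stem cells of a single donor, and the study describes its cultures as mostly neurons, with cytosine arabinoside added to hold back glial division. The study's methods speak of unrelated cultures for its experiments in general, but neither they nor the labels tie single libraries to a culture, an animal or a day. The p-values therefore measure the spread between these libraries, part of which may be technical.

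Chemokines are small secreted proteins that attract cells through receptors coupled to G proteins, and their CC, CXC and CX3C classes are named after the spacing of their first cysteines. In brain tissue Ccl2 and Ccl7 draw monocytes through the receptor Ccr2 and are typically made by astrocytes and other glia during injury or inflammation. Cx3cl1 is made by neurons and read by Cx3cr1 on microglia, while Cxcl12 guides migrating neurons and axons through Cxcr4 and Ackr3. Among the cytokines, Csf1 keeps microglia alive through Csf1r, Lif and Il6 act through receptors that contain gp130 (Il6st), and Il33 is a nuclear alarmin released from damaged glia.

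The promoters show what regulatory letters these genes carry next to their starts. RefSeq windows of GRCr8 from 250 bases before to 50 bases after the gene start were found for 7 of the 10 genes, and Ccl2, Csf1 and Lif had no entry. Each window was searched on both strands for the letters GGANNTTCC (a κB-like motif), TGANTCA (AP-1), TTCNNNGAA (STAT) and GAAANNGAA (part of an interferon-stimulated response element). The windows of 4 genes are printed because all of them held a κB-like match. Of these, 1 gene was high after treatment and 3 genes stayed under 1 TPM, except Cxcl1 in EV replicate 2 (2.29 TPM). Capitals mark every match to any of the 4 motifs.
Ccl7 (chr10:67513845-67514144, plus strand): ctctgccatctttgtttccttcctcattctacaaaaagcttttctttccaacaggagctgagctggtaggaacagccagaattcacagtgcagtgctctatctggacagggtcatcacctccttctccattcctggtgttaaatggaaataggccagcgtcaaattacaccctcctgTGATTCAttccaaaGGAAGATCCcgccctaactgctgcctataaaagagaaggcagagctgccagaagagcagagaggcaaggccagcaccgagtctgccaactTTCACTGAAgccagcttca
Cxcl1 (chr14:17479272-17479571, minus strand): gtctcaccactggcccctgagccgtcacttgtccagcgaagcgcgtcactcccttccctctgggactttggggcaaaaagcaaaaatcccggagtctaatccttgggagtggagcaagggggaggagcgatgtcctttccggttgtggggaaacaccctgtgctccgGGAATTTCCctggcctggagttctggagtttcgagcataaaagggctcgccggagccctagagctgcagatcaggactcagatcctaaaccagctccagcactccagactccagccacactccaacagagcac
Cxcl10 (chr14:15988816-15989115, plus strand): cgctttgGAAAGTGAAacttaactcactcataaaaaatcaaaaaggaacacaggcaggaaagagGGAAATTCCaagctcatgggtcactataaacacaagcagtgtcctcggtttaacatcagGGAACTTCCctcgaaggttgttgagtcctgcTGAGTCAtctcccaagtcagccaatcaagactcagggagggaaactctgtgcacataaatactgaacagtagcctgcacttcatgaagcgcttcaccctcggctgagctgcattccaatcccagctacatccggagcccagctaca
Il6 (chr4:5894526-5894825, minus strand): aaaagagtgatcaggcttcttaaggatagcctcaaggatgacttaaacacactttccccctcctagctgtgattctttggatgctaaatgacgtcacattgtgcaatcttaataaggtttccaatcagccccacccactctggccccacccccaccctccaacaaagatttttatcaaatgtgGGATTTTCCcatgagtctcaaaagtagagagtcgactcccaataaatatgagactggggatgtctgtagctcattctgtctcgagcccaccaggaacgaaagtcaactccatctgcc

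A κB-like match was present in 4 of the 7 genes, against 4.09% of all 33469 promoter windows of the same length. An AP-1 match was present in Ccl7 and Cxcl10, that is 2 of 7, against 7.33% of all windows. Ccl7 alone held a STAT match, which began 32 bases after the start (8.87% of all windows hold one), and Cxcl10 alone an interferon-type match (9.71% of all windows). In Ccl7 the AP-1 letters began 73 bases and the κB-like letters 59 bases before the start. The windows of Cxcl12, Cx3cl1 and Il33 held no match. A match of letters does not show binding, and no match concerns these windows only.

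**Figure D1:**
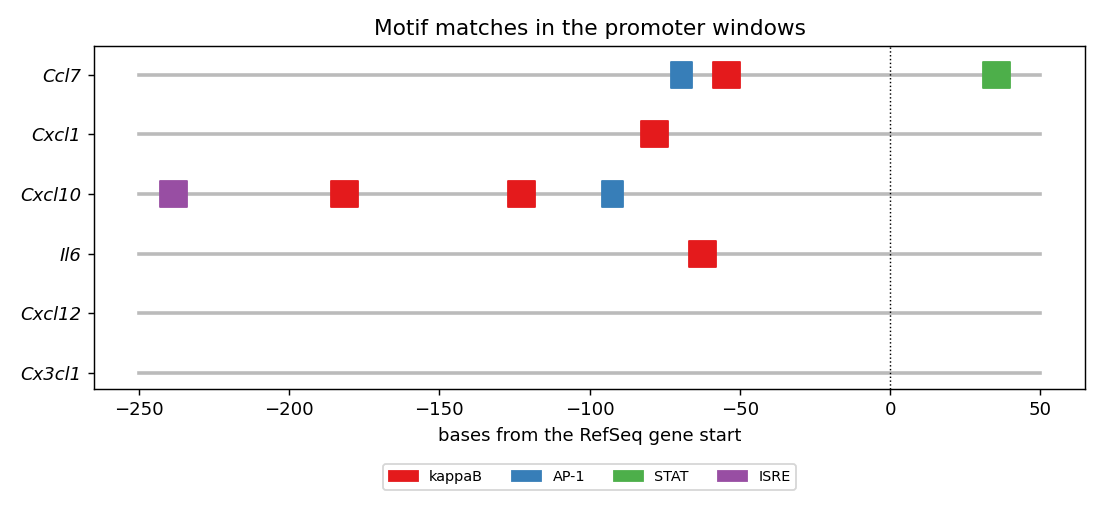
Motif matches in the RefSeq promoter windows of 6 of the genes, with distance from the gene start in bases on the horizontal axis and one grey line per gene. Ccl7, Cxcl1, Cxcl10 and Il6 carry κB-like matches (red), and the windows of Cxcl12 and Cx3cl1 are empty.

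The deposited values were read as TPM, transcript abundances corrected for length and scaled to the same total in each library, so that genes can be compared per length. TPM keeps no depth, which is therefore unknown, and the number of rows above 0 ran from 14890 to 15392 over the libraries. Rps6, a ribosomal gene every cell uses, stood at 0 throughout whereas Actb, Gapdh and Eef1a1 never did, so a listed 0 is given only as listed. The labelled neuroglial character was borne out by markers, with summed levels of the 8 neuronal markers between 1968 and 2655 TPM and of the 7 astrocyte markers between 801 and 1520 TPM over the 12 libraries. In bulk RNA fewer cells of a type and less RNA per cell cannot be told apart.

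In the untreated cultures the 10 genes stood at different levels. In IC, Cx3cl1 stood highest at 57.3 ± 6.67 TPM (SD, n = 3), followed by Il33 at 12 ± 1.84 TPM and Csf1 at 4.91 ± 0.518 TPM, and the ranges of these 3 genes did not overlap. Cxcl12 had 0.484, 0.471 and 0.468 TPM in the IC libraries. The other 6 genes were at or near 0, with no IC library above 0.378 TPM, and their order cannot be read from such values. After the 3–100 kDa proteins the order was different, with Ccl2 at 104 ± 43.7 TPM and Cx3cl1 at 76.0 ± 6.19 TPM, whose ranges overlapped. By mean level Ccl2 stood at rank 1331 of the 16539 names above 0 after the 3–100 kDa proteins.

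Ccl2, the monocyte chemoattractant, was the gene that differed most. Its IC libraries, here and below in the order of replicates 1 to 3, held 0.378, 0 and 0 TPM. After the 3–100 kDa proteins it was at 78.1, 154 and 78.5 TPM, after the total secretome at 9.61, 68.9 and 39.4 TPM and after EV at 4.20, 46.3 and 18.7 TPM. Every treated library lay above every IC library, and the libraries of the 3–100 kDa proteins lay above those of the other treatments. Replicate 2 was the highest of each treatment and replicate 1 the lowest of the secretome and EV groups. On the log2(TPM + 1) scale Ccl2 rose by 6.5 after the 3–100 kDa proteins (standard error 0.28, limma adjusted p = 0.00022, higher in 3 of 3 libraries), and this call held with each library left out in turn, where the adjusted p reached at most 0.00249. After the total secretome it rose by 4.82 (standard error 0.65, limma adjusted p = 0.0136). This second call was lost without secretome replicate 2 (limma adjusted p = 0.0702), without secretome replicate 3 (0.0941) and without IC replicate 1 (0.0679). No IC library reached 1 TPM, so Ccl2 was tested only through the treated libraries, and neither call lends support by itself. For EV the difference was 3.92 with a standard error of 0.71, given as a description. The size of these differences depends on the pseudocount because IC was near 0, and with 0.1 TPM in place of 1 TPM they were 9.23, 7.50 and 6.54.

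Ccl7, the neighbouring CC chemokine that shares Ccr2, followed Ccl2. In the GRCr8 gene order the protein-coding genes Ccl2, Ccl7 and Ccl11 lie next to each other on chromosome 10. Ccl7 was listed at 0, 0.300 and 0 TPM in IC, at 12.6, 27.2 and 14.0 TPM after the 3–100 kDa proteins, at 2.09, 11.0 and 5.86 TPM after the total secretome and at 1.71, 5.50 and 4.49 TPM after EV. No treated library overlapped with IC, and again the 3–100 kDa proteins gave the 3 highest values. It rose by 4.05 on the log2(TPM + 1) scale after the 3–100 kDa proteins (standard error 0.30, limma adjusted p = 0.00131) and by 2.55 after the total secretome (standard error 0.48, limma adjusted p = 0.0487). The first call held in each omission, with an adjusted p of at most 0.0108. The second was lost without secretome replicate 2 (limma adjusted p = 0.170), secretome replicate 3 (0.213), IC replicate 1 (0.197) or IC replicate 3 (0.121), and when genes were not filtered on low values (0.0819). Like Ccl2, Ccl7 was tested only through the treated libraries, so these calls lend no support by themselves. The difference for EV was 2.06 (standard error 0.36), as a description. With a pseudocount of 0.1 TPM these 3 differences were 6.75, 5.06 and 4.49. Within a library Ccl7 was between 16.1% and 17.8% of the TPM of Ccl2 after the 3–100 kDa proteins, between 14.9% and 21.7% after the total secretome and between 11.9% and 40.7% after EV. Ccl11, the third gene of the row, was listed at 0 in 11 of 12 libraries and at 0.243 TPM in IC replicate 2.

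**Figure D2:**
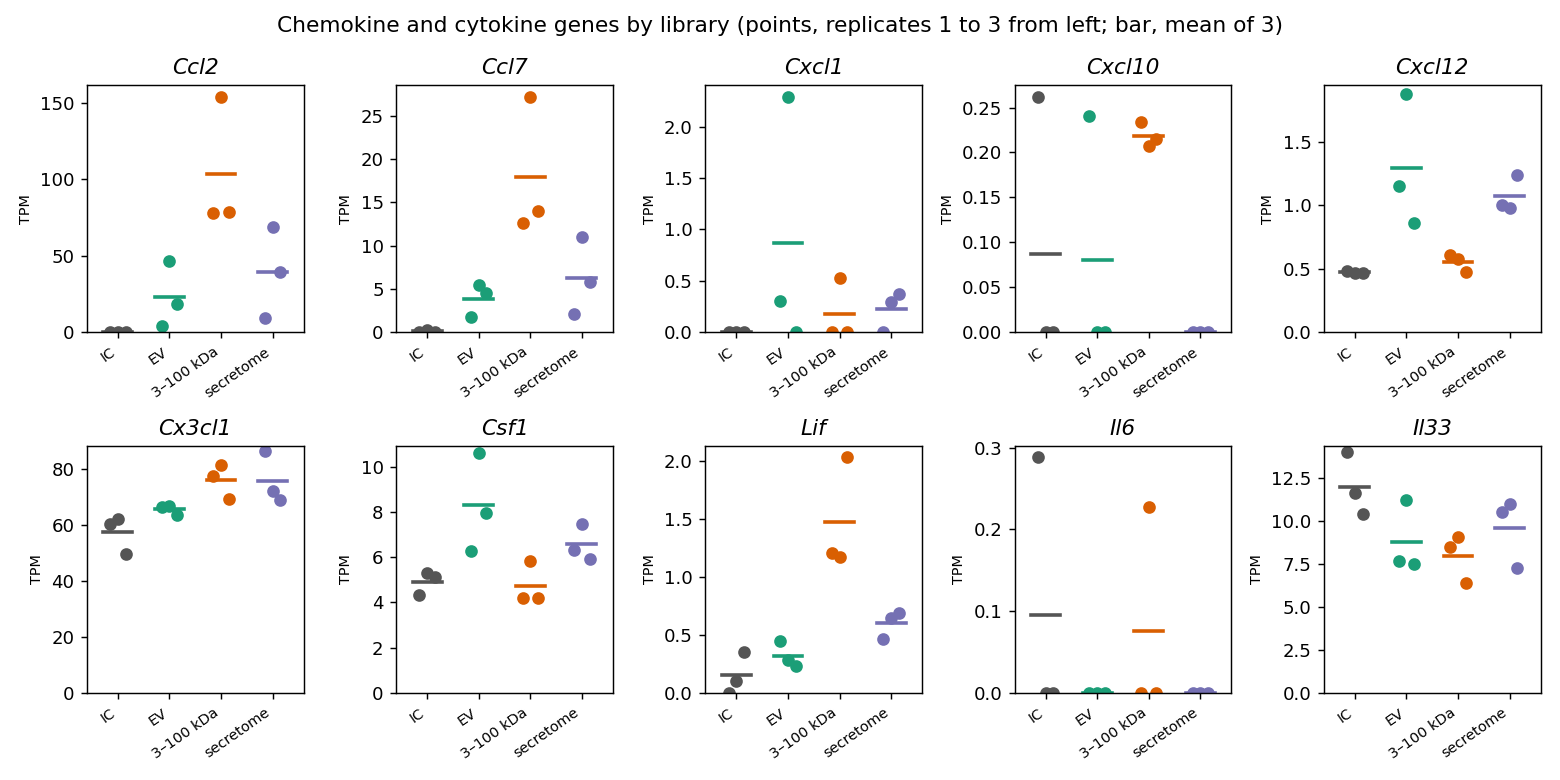
TPM of each of the 10 genes (vertical axes, each with its own scale from 0) in the 3 libraries of IC, EV, 3–100 kDa proteins and total secretome, with a point per library and a bar at the mean. Ccl2 and Ccl7 are highest after the 3–100 kDa proteins, whose Ccl2 values run from 78.1 to 154 TPM, whereas the means of Cxcl12 and Csf1 are highest after EV.

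Lif, a gp130 cytokine released by astrocytes and other glia, was low in all libraries but had the same order of treatments. It was listed at 0, 0.1 and 0.357 TPM in IC, at 1.21, 1.17 and 2.03 TPM after the 3–100 kDa proteins, at 0.465, 0.649 and 0.691 TPM after the total secretome and at 0.452, 0.282 and 0.231 TPM after EV. The libraries of the 3–100 kDa proteins and of the secretome did not overlap with IC, and those of EV did. Its difference after the 3–100 kDa proteins was 1.10 on the log2(TPM + 1) scale (standard error 0.27, limma adjusted p = 0.0854), which did not pass the correction. With a pseudocount of 0.1 TPM the difference was 2.86, since the values lie near the pseudocount. A fit of all 12 libraries together gave an adjusted p of 0.0177 in limma for the same difference. Against IC, Lif passed the filter on low values for the 3–100 kDa proteins only through the treated libraries, and for the secretome it did not pass. When no filter was applied its secretome difference was 0.48 (standard error 0.16, limma adjusted p = 0.244). In the fit of all 12 libraries the limma adjusted p of that difference was 0.346.

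Csf1 and Cxcl12 had another order, with their lowest treated values after the 3–100 kDa proteins. Csf1, the growth factor of microglia, was at 4.32, 5.29 and 5.13 TPM in IC, at 6.27, 10.6 and 7.97 TPM after EV, at 6.33, 7.48 and 5.92 TPM after the total secretome and at 4.21, 5.82 and 4.19 TPM after the 3–100 kDa proteins. The EV and secretome libraries lay above all IC libraries, while those of the 3–100 kDa proteins overlapped with IC. The EV difference was 0.62 on the log2(TPM + 1) scale (standard error 0.23, as a description). The secretome gave a difference of 0.37 (standard error 0.19, limma adjusted p = 0.393). The 3–100 kDa proteins gave −0.03 (standard error 0.20, limma adjusted p = 0.967). This last difference took the other sign, at 0.06, 0.01 and 0.05, without 3–100 kDa replicate 1, IC replicate 2 or IC replicate 3. Cxcl12, the ligand of Cxcr4, was listed at 1.15, 1.88 and 0.860 TPM after EV, at 1, 0.977 and 1.24 TPM after the total secretome and at 0.606, 0.575 and 0.477 TPM after the 3–100 kDa proteins. Its EV and secretome values thus lay above the 3 IC values given above, and those of the 3–100 kDa proteins overlapped with them. Cxcl12 did not reach 1 TPM in 3 libraries of any comparison tested. When no filter was applied its secretome difference from IC was 0.50 (standard error 0.13, limma adjusted p = 0.172).

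Cx3cl1, the neuronal chemokine, was well expressed throughout, with a lowest value of 49.7 TPM over the 12 libraries. It was at 60.4, 61.9 and 49.7 TPM in IC, at 66.4, 66.6 and 63.4 TPM after EV, at 77.5, 81.3 and 69.2 TPM after the 3–100 kDa proteins and at 86.3, 71.9 and 68.7 TPM after the total secretome. Each treated library was above the highest IC library, by a small margin for EV. The difference was 0.43 on the log2(TPM + 1) scale for the 3–100 kDa proteins (standard error 0.11, limma adjusted p = 0.103) and 0.41 for the secretome (standard error 0.11, limma adjusted p = 0.126). Neither passed the correction, and for EV the difference was 0.19 (standard error 0.13). The secretome value passed without IC replicate 2 (limma adjusted p = 0.0411), and in a fit of all 12 libraries the limma adjusted p was 0.0166 for the 3–100 kDa proteins and 0.0295 for the secretome.

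Il33, the alarmin, went the other way. It was at 14.0, 11.6 and 10.4 TPM in IC, at 8.48, 9.09 and 6.41 TPM after the 3–100 kDa proteins, at 10.5, 11.0 and 7.24 TPM after the total secretome and at 7.66, 11.2 and 7.50 TPM after EV. The libraries of the 3–100 kDa proteins lay below all IC libraries, and those of the other treatments overlapped with IC. The difference of −0.51 for the 3–100 kDa proteins (standard error 0.17, limma adjusted p = 0.168) did not pass the correction, and that of the secretome was −0.29 (standard error 0.17, limma adjusted p = 0.460), or −0.17 without secretome replicate 3.

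Cxcl1, Cxcl10 and Il6, which are classical inflammatory targets and hold κB-like letters in the promoters printed above, stayed near 0. Cxcl1, which attracts neutrophils through Cxcr2, was listed at 0 in all IC libraries and reached 0.308, 2.29 and 0 TPM after EV, 0, 0.528 and 0 TPM after the 3–100 kDa proteins and 0, 0.292 and 0.376 TPM after the total secretome. Its only value above 1 TPM was in EV replicate 2. Cxcl10, an interferon-induced attractant of T cells, had 0.262, 0 and 0 TPM in IC, and after EV it had 0.241, 0 and 0 TPM. It was at 0.234, 0.207 and 0.215 TPM after the 3–100 kDa proteins and listed at 0 in the 3 secretome libraries. Il6, the inflammatory gp130 cytokine, was above 0 in 2 of 12 libraries, with 0.288 TPM in IC replicate 1 and 0.228 TPM in 3–100 kDa replicate 2. No group of libraries stood clear of IC for any of these 3 genes, and none passed the filter on low values. When no filter was applied, Cxcl1, Cxcl10 and Il6 differed from IC by 0.20, 0.18 and −0.02 after the 3–100 kDa proteins (limma adjusted p = 0.683, 0.564 and 0.975). After the secretome they differed by 0.29, −0.10 and −0.11 (limma adjusted p = 0.44, 0.741 and 0.734).

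Read across the 10 genes, the treatments differed from IC as follows. For the 3–100 kDa proteins 6 genes were tested and 2, Ccl2 and Ccl7, were higher at an adjusted p under 0.05 in limma, as were 2.83% of all 12792 genes tested. The study also used a p and fold criterion without naming an adjustment, and it was applied here to the unadjusted p (under 0.05) and the fold change (over 1.5). By this second criterion 3 genes were higher and 0 lower, against 6.64% and 3.38% of all genes. For the total secretome 5 genes were tested and the same 2 were higher at the adjusted p, as were 1.68% of 12790 genes, and 2 were higher and 0 lower by the second criterion, against 5.54% and 2.54%. Ccl2, Ccl7 and Lif passed the filter on low values only through the treated libraries, so they had to differ, and these counts lend no support by themselves. Both comparisons, and that of EV, share the IC libraries. Libraries did not overlap with IC for 5 of the 10 genes after the 3–100 kDa proteins, 4 higher and 1 lower, and for 6 after the secretome, all higher, while this held in either direction for 20.6% and 20.2% of all genes tested. After EV it held for 5 of the 10, all higher, beside 5.12% of all genes tested in either direction, and nothing is read from this because the genes were chosen with that contrast known. These member counts include genes below the filter, Lif and Cxcl12 for the secretome and Cxcl12 for EV. The shares cover tested genes only, so the bases are unlike. Complete separation of 3 libraries from 3 has an exact two-sided permutation p of 0.1, the smallest possible here.

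**Figure D3:**
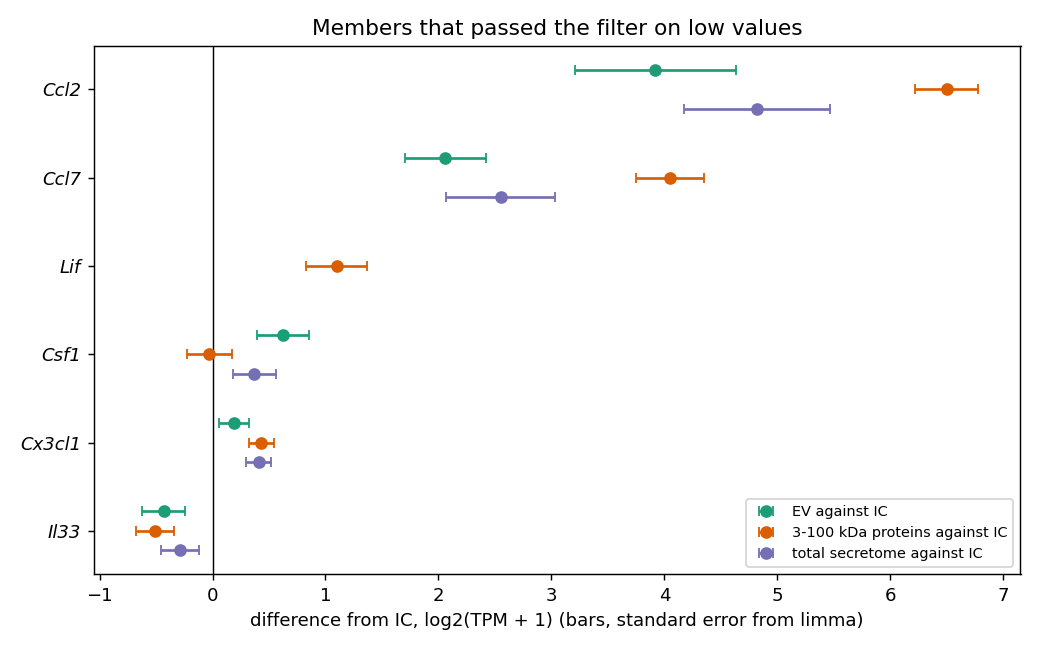
Difference from IC on the log2(TPM + 1) scale (horizontal axis, bars are standard errors from limma) for the 6 genes that passed the filter on low values, in EV (green), 3–100 kDa proteins (orange) and total secretome (purple). Ccl2 spans 3.92 to 6.5, while Csf1, Cx3cl1 and Il33 lie within 0.62 of 0.

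The total secretome and the 3–100 kDa proteins were compared directly, at their different doses of 45 and 15 µg/mL. None of the 6 tested genes passed an adjusted p of 0.05 in limma, where 0.0157% of 12723 genes did, which is 2 genes. By unadjusted p and fold change 3 of them, Ccl2, Ccl7 and Lif, were lower after the secretome and 0 were higher, against 0.707% and 0.542% of all genes. The differences, secretome minus 3–100 kDa proteins on the log2(TPM + 1) scale, were −1.67 for Ccl2 (standard error 0.65), −1.49 for Ccl7 (standard error 0.50) and −0.61 for Lif (standard error 0.25), each with a limma adjusted p of 1. That of Lif was −1.14 with a pseudocount of 0.1 TPM. With the replicate number as a block the limma adjusted p was 0.511 for Ccl2, 0.244 for Ccl7 and 0.877 for Lif. Lif reached 1 TPM in 0 secretome libraries and in 3 of 3 of the 3–100 kDa proteins, so it passed the filter only through the group where it was high, and the count of 3 lends no support by itself. Without secretome replicate 1 the difference was −0.85 for Ccl2 and −0.93 for Ccl7. Their count by this criterion fell to 0 without 3–100 kDa replicate 2 and to 1 without 3–100 kDa replicate 3. For Csf1 the difference was 0.41 (standard error 0.18, limma adjusted p = 1). EV minus 3–100 kDa proteins, which shares the EV libraries that guided the choice of genes, is given as a description: it was −2.55 for Ccl2, −1.96 for Ccl7, −0.89 for Lif, 0.68 for Csf1 and 0.54 for Cxcl12.

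The genes whose levels ran most like Ccl2 over the 12 libraries were Ccl7, Elk3, Sphk1, Lamc1 and F3, out of 13270 genes ranked by Pearson's correlation of log2(TPM + 1). Their correlations were 0.98, 0.98, 0.97, 0.97 and 0.97, given without a test, and the libraries share the large step between IC and treatment. Elk3, a ternary complex factor, was at 3.52 ± 0.164 TPM (SD, n = 3) in IC, 10.3 ± 1.63 TPM after the 3–100 kDa proteins, 9.02 ± 2.46 TPM after the secretome and 6.25 ± 1.47 TPM after EV. Sphk1, which makes sphingosine 1-phosphate, had no IC value above 0 and reached 3.42, 4.43 and 4.84 TPM after the 3–100 kDa proteins. F3, the tissue factor of coagulation, was at 15.0 ± 1.90 TPM in IC and 58.3 ± 8.21 TPM after the 3–100 kDa proteins, and Lamc1, a laminin chain, at 8.85 ± 0.988 and 34.7 ± 7.88 TPM. Of the other 8 genes, Lif and Cx3cl1 correlated with Ccl2 at 0.74 and 0.69 and Il33 at −0.51, while Csf1 and Cxcl12 stood at 0.23 and 0.32 and Cxcl1, Cxcl10 and Il6 were too low to be ranked.

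Markers of microglia and blood leukocytes, the usual readers of Ccl2, Ccl7, Cxcl1, Cxcl10, Cx3cl1 and Csf1, had low listed values. All 11 microglia and macrophage markers together summed to between 0.425 and 3.19 TPM in IC, between 0.594 and 1.52 TPM after EV, between 0.834 and 1.91 TPM after the 3–100 kDa proteins and between 1.90 and 3.12 TPM after the secretome. Ptprc and Trem2 were listed at 0 in all 12 libraries. The 6 markers of T cells and neutrophils summed to at most 0.549 TPM in any library. The 5 endothelial markers in the files, out of 6 listed, summed to between 0.196 and 0.247 TPM in IC, between 0.639 and 0.758 TPM after the 3–100 kDa proteins, between 0.0751 and 0.600 TPM after EV and between 0.351 and 0.566 TPM after the secretome. The 5 meningeal fibroblast markers summed to between 0.270 and 0.698 TPM in IC, 1.42 and 1.96 TPM after the 3–100 kDa proteins, 0.576 and 1.71 TPM after EV and 0.909 and 1.90 TPM after the secretome. The 5 pericyte and smooth muscle markers summed to between 3.68 and 5.04 TPM in IC and to at most 3.12 TPM in any treated library. Within that list Pdgfrb was lower in all treated libraries, at most 1.73 TPM against at least 2.45 TPM in IC, whereas Acta2 was at 0 in IC and at 0.926, 1.64 and 1.02 TPM after the 3–100 kDa proteins. The 8 neuronal markers summed to between 2409 and 2539 TPM in IC, 2343 and 2655 TPM after EV, 2033 and 2315 TPM after the 3–100 kDa proteins and 1968 and 2424 TPM after the secretome. All libraries of the 3–100 kDa proteins lay below IC in this sum, but without Tubb3 the sums were between 833 and 1269 TPM in IC and between 943 and 1223 TPM after the 3–100 kDa proteins, which overlap. Astrocyte markers summed to between 801 and 1074 TPM in IC and between 913 and 1381 TPM after the 3–100 kDa proteins, 1091 and 1467 TPM after EV and 1088 and 1520 TPM after the secretome. Without Gfap they summed to between 673 and 834 TPM in IC, 671 and 934 TPM after the 3–100 kDa proteins, 599 and 850 TPM after EV and 804 and 885 TPM after the secretome, and all overlapped with IC. Oligodendrocyte lineage markers summed to between 183 and 236 TPM in IC, 124 and 189 TPM after the 3–100 kDa proteins, 193 and 232 TPM after EV and 238 and 265 TPM after the secretome. The part of these shifts in the chemokine values was not tested.

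Receptors for the 10 ligands were read by level. Ccr2, the receptor of Ccl2 and Ccl7, was listed at 0 in all 12 libraries. Cxcr2, Cxcr3, Cx3cr1, Csf1r and Il1rl1, the receptors of Cxcl1, Cxcl10, Cx3cl1, Csf1 and Il33, did not exceed 0.513 TPM in any library. Present at higher levels were Cxcr4, at 21.0, 29.6 and 22.4 TPM in IC, Ackr3, at 11.2, 9.55 and 9.56 TPM, Il6st, at 24.2, 15.8 and 28.8 TPM, and Lifr, at 6.48, 2.77 and 7.25 TPM. Cxcr4 was at 14.5, 19.3 and 17.0 TPM after the 3–100 kDa proteins and at 13.9, 16.0 and 18.0 TPM after the secretome, below all IC libraries, and at 21.2, 21.1 and 18.4 TPM after EV, which overlapped with IC. Ackr3, the scavenging receptor of Cxcl12, was at 7.03, 3.90 and 4.35 TPM after the secretome, below all IC libraries, a difference of −0.88 on the log2(TPM + 1) scale (standard error 0.20, limma adjusted p = 0.0819). After the 3–100 kDa proteins its difference was −0.83 (standard error 0.24, limma adjusted p = 0.125) and after EV 0.03 (standard error 0.17, limma adjusted p = 1).

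A list of 110 other genes of chemokine and cytokine signalling, of which 107 were in the files, gave the setting of these changes. For EV 45 of them were tested and 1 was higher at an adjusted p under 0.05 in limma, as were 0.102% of all 12754 genes, and 9 were higher and 0 lower by unadjusted p and fold change, against 1.56% and 0.588%. The list was chosen with this contrast known, so its counts are a description and support nothing by themselves. For the 3–100 kDa proteins 5 of 45 were higher at the adjusted p, as were 2.83% of all genes, and 14 were higher and 2 lower by the second criterion, against 6.64% and 3.38%. For the secretome 5 of 45 were higher at the adjusted p, as were 1.68% of all genes, and 11 were higher and 3 lower by the second criterion, against 5.54% and 2.54%. Clcf1 in both comparisons, Il6r and Tgfb1 in that of the 3–100 kDa proteins and Rel in that of the secretome reached 1 TPM in no IC library. They were tested only through the treated libraries, so they had to differ, and the same holds for Il1r1 after EV. Il23a was tested in both comparisons only through IC, where it was high. The counts of genes higher and lower therefore lend no support by themselves. The median log2 differences of the tested genes were 0.14, 0.31 and 0.26, and those of all genes −0.01, −0.02 and −0.01. In the direct comparison of secretome and 3–100 kDa proteins 0 of 47 passed the adjusted p in limma, and 1 was higher and 1 lower by the second criterion.

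Among the other chemokines 16 of 29 were listed at 0 in all 12 libraries, and only Ccl27, Cxcl14 and Cxcl16 reached 1 TPM in 3 or more. The inflammatory chemokines Ccl3, Ccl4, Ccl5 and Cxcl2 were among those at 0. Cxcl16, a membrane-bound chemokine, was at 0.660, 1.07 and 1.11 TPM in IC, at 2.58, 1.88 and 2.47 TPM after EV, at 1.33, 2.74 and 2.17 TPM after the 3–100 kDa proteins and at 1.71, 3.18 and 0.926 TPM after the secretome, which overlapped with IC. Its differences of 0.76 (standard error 0.24, limma adjusted p = 1), 0.65 (standard error 0.27, limma adjusted p = 0.267) and 0.53 (standard error 0.32, limma adjusted p = 0.471) did not pass the correction. Cxcl14 lay between 27.4 and 46.1 TPM and Ccl27 between 15.9 and 33.3 TPM over all libraries.

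Among the other cytokines Clcf1, which forms a gp130 ligand, had the order of treatments seen for Ccl2. It was listed at 0.121, 0.0986 and 0 TPM in IC, at 3.70, 4.81 and 7.38 TPM after the 3–100 kDa proteins, at 2.06, 2.13 and 1.91 TPM after the secretome and at 0.557, 0.555 and 0.568 TPM after EV. No library of one group overlapped with another group. Clcf1 rose by 2.53 on the log2(TPM + 1) scale after the 3–100 kDa proteins (standard error 0.29, limma adjusted p = 0.00567), with an adjusted p of at most 0.0410 in each omission. After the secretome it rose by 1.51 (standard error 0.22, limma adjusted p = 0.0175), a call kept only without IC replicate 2 (0.0342) and lost in the other 5 omissions. Clcf1 was tested only through the treated libraries, so these calls lend no support by themselves. Tnf was listed at 0 in all 12 libraries, and Il1b was above 0 only in IC replicate 3, at 0.199 TPM. Il34, the other ligand of Csf1r, was at 2.46 ± 0.411 TPM (SD, n = 3) in IC and at 0.940 ± 0.253 TPM after the 3–100 kDa proteins, a difference of −0.83 (standard error 0.23, limma adjusted p = 0.112). Kitlg, the stem cell factor, differed by 0.89 after the 3–100 kDa proteins (standard error 0.26, limma adjusted p = 0.129) and by 0.75 after the secretome (standard error 0.22, limma adjusted p = 0.149). Tslp, an epithelial alarmin, differed by 1.08 after EV (standard error 0.34, limma adjusted p = 1).

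Of the receptors in the list Il1rap, the shared chain of the receptors for Il1 and Il33, was at 3.90, 3.28 and 5.44 TPM in IC, 16.9, 33.9 and 31.8 TPM after the 3–100 kDa proteins, 16.2, 19.9 and 28.3 TPM after the secretome and 4.85, 9.43 and 17.0 TPM after EV. It rose by 2.44 after the 3–100 kDa proteins (standard error 0.32, limma adjusted p = 0.00926) and by 2.11 after the secretome (standard error 0.29, limma adjusted p = 0.0153). Each call was lost without replicate 2 or replicate 3 of its treatment or without IC replicate 1, where the adjusted p reached at most 0.0582 and 0.0935. Tnfrsf1a, the main receptor of Tnf, was at 14.9 ± 2.05 TPM in IC, 31.7 ± 4.53 TPM after the 3–100 kDa proteins and 36.6 ± 3.08 TPM after the secretome. It rose by 1.07 (standard error 0.18, limma adjusted p = 0.0243) and by 1.26 (standard error 0.15, limma adjusted p = 0.00894). The first call was lost without replicate 2 or 3 of the 3–100 kDa proteins or without IC replicate 1 or 3 (adjusted p at most 0.127). It was also lost with the replicate number as a block (limma adjusted p = 0.0903). The second call was lost without secretome replicate 2 or 3 or IC replicate 1 (at most 0.0780). After EV Tnfrsf1a differed by 1.25 (standard error 0.17, limma adjusted p = 0.0718), and Il1r1, the receptor of Il1, by 1.03 (standard error 0.29, limma adjusted p = 0.874). Il6r, the receptor of Il6, had 0.172, 0.0466 and 0.166 TPM in IC against 1.44, 1.55 and 1.08 TPM after the 3–100 kDa proteins, a rise of 1.06 (standard error 0.22, limma adjusted p = 0.0466). This call was lost in all 6 omissions, where the adjusted p lay between 0.104 and 0.238, and with the replicate block (0.144). Il6r was tested only through the treated libraries, so the call lends no support by itself.

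Among the other cytokine regulators Stat3 passed the adjusted p in every comparison with IC, Socs3 in that of the secretome and Cebpd and Cebpb in none. Stat3, which carries the signal of gp130 cytokines, was at 27.9 ± 1.95 TPM in IC, 76 ± 8.44 TPM after EV, 70.6 ± 8.61 TPM after the 3–100 kDa proteins and 74.5 ± 7 TPM after the secretome. It rose by 1.40 after EV (limma adjusted p = 0.0154), 1.33 after the 3–100 kDa proteins (limma adjusted p = 0.00532) and 1.40 after the secretome (limma adjusted p = 0.00481). The EV call was lost without EV replicate 2 or 3 or IC replicate 1 or 3 (adjusted p at most 0.141). It was also lost with the replicate number as a block (limma adjusted p = 0.109). The secretome call was lost without secretome replicate 3 (0.0537), and the call for the 3–100 kDa proteins in no omission. Cebpd, a factor of the acute-phase response, had among the treatments an order opposite to that of Ccl2, at 1.82, 3.81 and 0.502 TPM in IC, 15.8, 11.6 and 8.03 TPM after EV, 6.62, 5.48 and 7.63 TPM after the secretome and 2.10, 3.30 and 2.57 TPM after the 3–100 kDa proteins. Its differences from IC were 2.19 after EV (standard error 0.44, limma adjusted p = 0.266), 1.49 after the secretome (standard error 0.40, limma adjusted p = 0.124) and 0.44 after the 3–100 kDa proteins (standard error 0.41, limma adjusted p = 0.663). Cebpb, its relative, differed by 0.76 after EV (standard error 0.41, limma adjusted p = 1), 0.72 after the 3–100 kDa proteins (standard error 0.29, limma adjusted p = 0.270) and 0.79 after the secretome (standard error 0.30, limma adjusted p = 0.263). Socs3, a feedback inhibitor of gp130 signals, had the same order by mean level, though secretome and 3–100 kDa libraries overlapped, at 6.07 ± 0.658 TPM after EV, 4.13 ± 0.617 TPM after the secretome, 2.60 ± 0.977 TPM after the 3–100 kDa proteins and 1.11 ± 0.381 TPM in IC. It rose by 1.31 after the secretome (standard error 0.23, limma adjusted p = 0.0393). This call was lost with the replicate number as a block (0.0643) and in 5 of 6 omissions, all but that of IC replicate 2, where the adjusted p reached at most 0.221. Its EV difference of 1.75 had a limma adjusted p of 0.0602.

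In the NF-κB list 0 of 13 genes tested after EV, 0 of 13 after the 3–100 kDa proteins and 0 of 14 after the secretome passed the adjusted p in limma. By unadjusted p and fold change 0, 3 and 2 were higher, against 1.56%, 6.64% and 5.54% of all genes, and none was lower. Nfkb1, the p105 precursor subunit, was at 6.43 ± 0.812 TPM in IC, 12.8 ± 3.02 TPM after the 3–100 kDa proteins and 10.9 ± 0.967 TPM after the secretome, differences of 0.90 (standard error 0.21, limma adjusted p = 0.0753) and 0.70 (standard error 0.17, limma adjusted p = 0.0912). Relb, a subunit of the alternative pathway, differed by 1.16 after the 3–100 kDa proteins (standard error 0.25, limma adjusted p = 0.0585), by 0.86 after the secretome (standard error 0.27, limma adjusted p = 0.175) and by 0.17 after EV (standard error 0.28, limma adjusted p = 1). Zfp36 (tristetraprolin), which speeds the decay of cytokine messages, was at 0.856 ± 0.577 TPM in IC and at 3.10 ± 0.774, 3.23 ± 1.27 and 3.35 ± 1.30 TPM after EV, the 3–100 kDa proteins and the secretome. Its differences were 1.17, 1.21 and 1.25, and their limma adjusted p values of 0.495, 0.118 and 0.125 did not pass. Tnfaip3 (A20), an inhibitor of the pathway, differed by 0.66 after the 3–100 kDa proteins (standard error 0.27, limma adjusted p = 0.276) and by −0.37 after EV (standard error 0.31, limma adjusted p = 1).

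**Figure D4:**
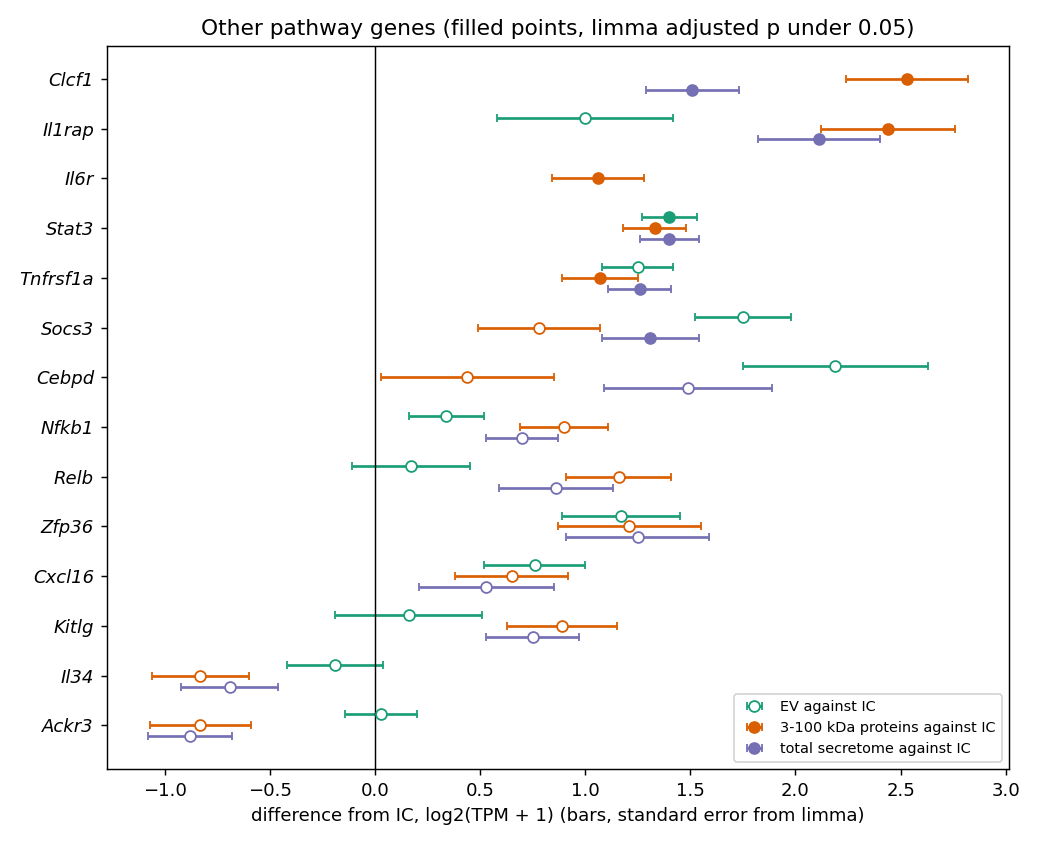
Difference from IC on the log2(TPM + 1) scale (horizontal axis, bars are standard errors from limma) for 14 other pathway genes in EV (green), 3–100 kDa proteins (orange) and total secretome (purple), with filled points for a limma adjusted p under 0.05 and no point where a gene was not tested. Clcf1 and Il1rap are highest after the 3–100 kDa proteins, Cebpd and Socs3 after EV, and Il34 and Ackr3 lie below 0 after the 3–100 kDa proteins and the secretome.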

How the data were processed

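RNA of rat cultures was sequenced in 12 mRNA libraries, whose kit and instrument the article and the labels describe differently, as they do the age of the pups. Per the article, the authors cleaned their reads with Trimmomatic and Cutadapt, estimated transcript abundance by Salmon on the Ensembl set for rn6 and derived gene levels through tximport. The labels give the build as Rnor 6.0. The deposited files name no unit, and their values were taken as TPM because they are fractional and add up to 1000000 in every library. Values of rows sharing a name were added. Within a comparison, median-of-ratios factors (0.909 to 1.08 over the 12 libraries) rescaled the TPM. A gene was tested where 3 or more libraries of its comparison reached 1 TPM. With 1 library left out, at least 2 libraries were required.

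Each comparison used its own 6 libraries and log2(TPM + 1) in limma 3.58.1 (R 4.3.3, eBayes with a trend in the mean), with Benjamini-Hochberg adjustment over all genes tested and a threshold of 0.05. The count model of the study was not used here, since TPM values are not counts. The members, the lists of pathway and marker genes and the tests were chosen with earlier results of these data known. Named were all 10 members, list genes past the adjusted p, up to 3 of lowest p per list and comparison past p and fold, the receptors of the members and the 5 genes most like Ccl2. A few further list genes at 0 or unchanged (Ccl3, Ccl4, Ccl5, Ccl11, Cxcl2, Cxcl14, Ccl27, Tnf and Il1b) were named after their values were seen. Flt3lg, Ackr1 and Zfp36l2 had no row under these names.

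The labels number the libraries of a group 1 to 3. Deviations from the group means correlated between same-numbered libraries at 0.24, 0.14 and 0.16 for the secretome and IC. They correlated at 0.34, 0.17 and 0.20 for the secretome and the 3–100 kDa proteins. These low correlations were read as pairing, from the data and not from the design. The reading is weak, since IC and the 3–100 kDa proteins did not pair with each other. Unless a block is named, the p-values come from fits without the replicate number. A plot legend of the study names a day covariate removed for IC and EV. Which library belongs to which day is not given in the sources used here, so no day was fitted. Alternatives were another pseudocount, no filter, no rescaling, 1 fit of all 12 libraries, the replicate block and the omission of each library.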

Additional observations from a re-analysis of the deposited data

How the results depend on the processing

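The calls at an adjusted p under 0.05 in limma moved most with the fit of all 12 libraries and with single libraries. In the fit of all 12 libraries the list of other pathway genes had 4 calls for EV, 11 for the 3–100 kDa proteins and 8 for the secretome, against 1, 5 and 5, and the 10 members had 4 calls for the 3–100 kDa proteins against 2. Without a filter on low values 1 member was called for the secretome against 2. With single libraries left out the pathway calls lay between 0 and 1 for EV, between 2 and 5 for the 3–100 kDa proteins and between 0 and 7 for the secretome. The member calls stayed at 2 for the 3–100 kDa proteins and lay between 0 and 3 for the secretome, and the members lower in the secretome than in the 3–100 kDa proteins by unadjusted p and fold between 0 and 2. For EV and IC, and for the 3–100 kDa proteins and IC, the numbers do not pair the libraries (correlations −0.05, −0.16 and 0.47, and 0.02, −0.22 and 0.22), and the replicate block left 0 and 3 pathway calls, with Stat3 for EV at a limma adjusted p of 0.109 against 0.0154, Tnfrsf1a for the 3–100 kDa proteins at 0.0903 against 0.0243 and Il6r at 0.144 against 0.0466. Whether these numbers mark the study's day covariate was not tested. In the comparisons read as paired the block ended the call of Socs3 for the secretome and changed no call of a member. Small differences changed sign when 1 library was left out: that of Csf1 for the 3–100 kDa proteins from −0.03 to 0.06, 0.01 and 0.05 (range −0.14 to 0.06), and that of Cx3cl1 between secretome and 3–100 kDa proteins from −0.01 to 0.02 and 0.00 (range −0.06 to 0.02). Rescaling changed no call or sign of a member, and the causes of these shifts were not tested. Since the depth is unknown, values under 1 TPM carry an unknown counting error.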
